A study of Homo sapiens with 8 samples.

Results

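The nuclear-encoded subunits of respiratory complexes II, III and IV and of ATP synthase (complex V), with cytochrome c, were followed in THP-1, a human monocytic leukaemia line grown in culture. Members were the rows of the deposited table whose symbol begins with SDHA to SDHD, UQCR, CYC1, CYCS, COX4 to COX8 or the ATP5F1, ATP5M, ATP5P and ATP5IF stems, without pseudogenes and antisense genes. This gave 44 of 9339 genes: 4 of complex II, 9 of complex III, cytochrome c itself, 11 of complex IV, 18 of complex V and the readthrough gene ATP5MF-PTCD1. The 4 groups of 2 libraries each were footprints from ALKBH5 knockdown cells (A5-KD), input RNA from the same knockdown, footprints from control cells and input RNA from control cells. ALKBH5 removes the methyl mark of N6-methyladenosine from RNA. Footprints were RNA fragments that ribosomes protected from micrococcal nuclease, labelled total RNA, and the input is labelled polyA RNA. The labels state neither how ALKBH5 was reduced nor whether replicates were separate cultures, so the errors may cover technical spread alone.

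The measure was the change in translational efficiency between knockdown and control, that is, the log2 fold change of footprint abundance relative to input RNA, from the authors' count model. The table does not name the condition on top, so every sign is the deposited one, and negative may mean lower or higher efficiency in the knockdown. It has 0 columns of values per library, so levels in single libraries cannot be shown, and the depth of each library is unknown. What it gives per gene is a mean normalized signal over all libraries, not per length, which is used here for precision only and not to rank genes by expression. An adjusted p is given to 648 genes, those with a mean signal of at least 155.3, among them 35 of the 44 members. Of 7 monocytic markers 6 had a row, and CD14 had none. Their mean signals were 2942 for LYZ, 174 for CD68, 41.4 for SPI1, 22.4 for CD33, 10.9 for CSF1R and 4.55 for ITGAM per the authors' deposited table. Of 10 markers of T cells, B cells, red cells, epithelium and fibroblasts 0 had a row.

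Complex II oxidises succinate and passes the electrons to ubiquinone, complex III moves them on to cytochrome c, and complex IV hands them to oxygen. Complexes III and IV pump protons across the inner mitochondrial membrane, and ATP synthase lets them flow back to make ATP. Complex II is built from nuclear genes alone, while complexes III, IV and V join nuclear-encoded subunits, made on cytosolic ribosomes and imported, to a few subunits made inside the mitochondrion.

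None of the 44 members passed an adjusted p of 0.05, and 32 of 44 had a negative log2 fold change of modest size. The median over the members was -0.17 (quartiles -0.29 and 0.03), a ratio of 0.891 between conditions. The members furthest on the negative side were the small membrane subunit of ATP synthase ATP5MD, the complex IV subunit COX6A1 and the complex III subunit UQCRB, and those furthest on the positive side were ATP5MPL and UQCRC1. In the authors' test (riborex with the DESeq2 engine), 0 of the 35 members with an adjusted p were called, against 10 of all 648 such genes (1.54%), and the smallest adjusted p of a member was 0.236. At an unadjusted p under 0.05 there were 4 members, all negative. They make up 11.4% of the 35, against 8.8% of the 648 genes, of which 7.72% passed with a negative sign. Over all genes 0.707% passed the unadjusted threshold, fewer than a threshold of 0.05 would pass with no change and well-set errors. The deposited errors were wide there: the fold changes of all genes had a standard deviation of 0.48 and a median standard error of 1.38. The share of members with a negative sign, 72.7%, was above the 51.9% of all genes, but genes of high signal were mostly negative too. Among genes with an adjusted p, 77.1% of the members were negative (27 of 35) against 68.4% of all such genes (443 of 648). The medians were -0.18 for those members and -0.12 for those genes. Leaving out genes named as cytosolic ribosomal proteins or mitochondrially encoded, a choice made after the values were seen, 64.4% of the other 559 were negative, with a median of -0.09, and 5.9% (33 of 559) had an unadjusted p under 0.05. These differences in share were not tested.

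**Figure D1:**
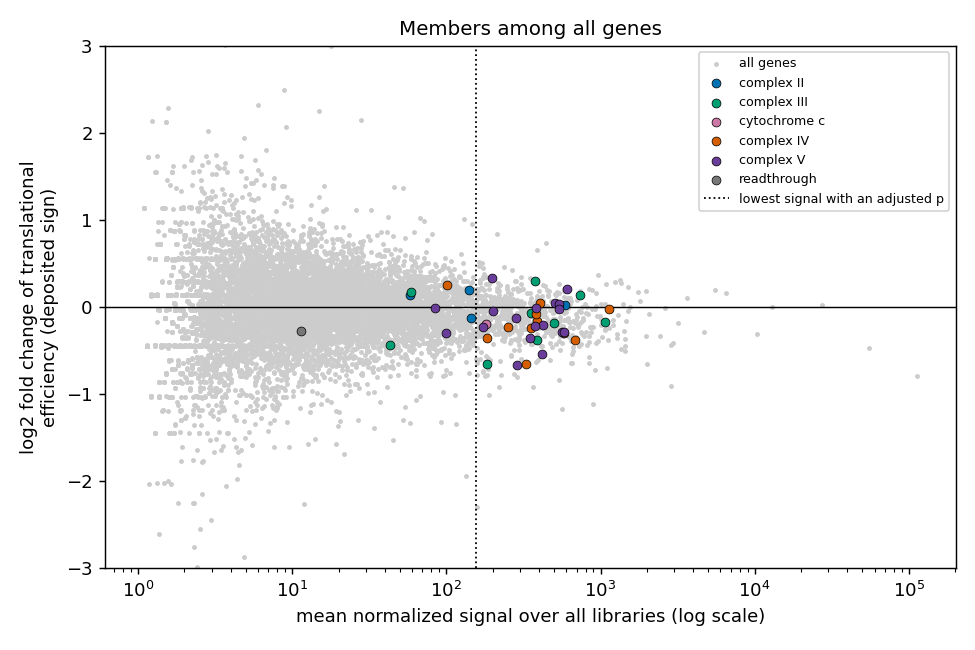
Log2 fold change of translational efficiency (vertical axis, deposited sign) against the mean normalized signal over all libraries (horizontal axis, log scale) for the 44 members (coloured by complex) and all genes (grey). Most members lie right of the dotted line, the lowest signal with an adjusted p (155.3), inside the cloud of genes of like signal; 14 genes lie beyond the vertical axis.

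The 4 members with an unadjusted p under 0.05 were COX6A1, ATP5MD, ATP5ME and COX4I1. COX6A1 encodes the widely expressed version of subunit 6A of cytochrome c oxidase, and the authors' deposited table gave it -0.66 ± 0.26 on the log2 scale (SE, unadjusted p = 0.011, adjusted p = 0.236). Its 95% interval, computed from that error, ran from -1.16 to -0.15, a ratio of 0.634 between conditions. ATP5MD, now named ATP5MK, encodes a small subunit in the membrane part of ATP synthase, and stood at -0.67 ± 0.31 (unadjusted p = 0.032, adjusted p = 0.44) per the authors' deposited table. ATP5ME, subunit e at the dimer interface of ATP synthase, had -0.54 ± 0.26 (unadjusted p = 0.041, adjusted p = 0.477) per the authors' deposited table. COX4I1, the common version of subunit 4 of cytochrome c oxidase, had -0.38 ± 0.19 (unadjusted p = 0.042, adjusted p = 0.477) per the authors' deposited table. All 4 intervals leave out 0 when read singly, and none of the 4 changes passed the adjustment. With fold changes centred on the median of all genes, 3 of the 4 kept an unadjusted p under 0.05, and COX4I1, then at -0.36, did not.

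These genes lie apart in the genome (GRCh38.p14, whole gene spans). COX6A1 spans bases 120438113 to 120440730 of chromosome 12, ATP5MD bases 103389050 to 103396475 of chromosome 10, ATP5ME bases 672436 to 674276 of chromosome 4 and COX4I1 bases 85799695 to 85807068 of chromosome 16. Their promoters are printed because these 4 members carry the lowest p-values of the set. Each window runs from 250 bases before the annotated RefSeq start to 50 bases from it, 5′ to 3′ on the gene's strand, and capitals mark the ETS-type letters CCGGAAG or their reverse complement CTTCCGG.
COX6A1, chr12:120437863-120438162, plus strand: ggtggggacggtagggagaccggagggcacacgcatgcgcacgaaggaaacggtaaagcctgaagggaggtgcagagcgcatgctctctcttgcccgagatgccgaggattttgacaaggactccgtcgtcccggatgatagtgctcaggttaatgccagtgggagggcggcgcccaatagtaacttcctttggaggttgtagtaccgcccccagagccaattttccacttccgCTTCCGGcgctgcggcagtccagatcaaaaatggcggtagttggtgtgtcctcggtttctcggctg
ATP5MD (ATP5MK), chr10:103396426-103396725, minus strand: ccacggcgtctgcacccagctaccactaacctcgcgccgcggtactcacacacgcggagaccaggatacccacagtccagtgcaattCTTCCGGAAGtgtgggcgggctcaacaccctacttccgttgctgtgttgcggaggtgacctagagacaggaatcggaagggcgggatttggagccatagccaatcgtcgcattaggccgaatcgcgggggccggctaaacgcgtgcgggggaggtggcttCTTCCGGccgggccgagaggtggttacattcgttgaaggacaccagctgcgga
ATP5ME, chr4:674227-674526, minus strand: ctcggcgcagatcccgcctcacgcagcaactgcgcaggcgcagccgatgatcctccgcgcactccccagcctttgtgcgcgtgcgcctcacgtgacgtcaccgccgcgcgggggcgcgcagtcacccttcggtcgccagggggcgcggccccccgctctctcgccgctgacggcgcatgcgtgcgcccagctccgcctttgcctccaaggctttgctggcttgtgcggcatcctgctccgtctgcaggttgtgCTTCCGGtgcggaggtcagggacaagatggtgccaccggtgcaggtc
COX4I1, chr16:85799445-85799744, plus strand: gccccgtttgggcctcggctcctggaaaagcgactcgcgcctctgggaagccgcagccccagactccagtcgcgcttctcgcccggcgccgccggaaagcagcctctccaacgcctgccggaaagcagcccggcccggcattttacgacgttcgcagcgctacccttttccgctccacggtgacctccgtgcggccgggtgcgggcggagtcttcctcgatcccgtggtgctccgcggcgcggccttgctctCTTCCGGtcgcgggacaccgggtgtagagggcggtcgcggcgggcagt
ETS-family letters of this kind are bound by GABP, also called nuclear respiratory factor 2, a known regulator of genes of the respiratory chain. In COX6A1 the motif begins 16 bases before the annotated start, and in COX4I1 and ATP5ME it lies just after it. In ATP5MD 2 matches overlap in a longer run and another sits near the start.

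Windows were found for 35 of the 44 members, and 16 of these hold CCGGAAG on either strand (45.7%), against 26.3% of the 7613 measured genes with a window and 12.2% of all 27305 genes with one. The letters GCGCATG, or CATGCGC on the other strand, from the binding sequence of nuclear respiratory factor 1, stand in 9 member windows (25.7%), among them COX6A1 and ATP5ME, against 9.96% of measured genes and 5.3% of all genes. The full palindromic form of that sequence stands in 2 (ATP5F1C and SDHD, 5.71%), against 3.09% of measured genes and 1.52% of all genes. The letters AAGATGGC, or GCCATCTT on the other strand, of the factor YY1 stand in 5 (14.3%), against 7.68% of measured genes and 3.52% of all genes. The motifs were counted apart, and a window can hold several. The background shares were not matched for signal: the median of the mean signals was 366 for the 44 members and 11.9 for all 9339 genes. These motifs were chosen after the values were seen, and a match is a run of letters in a window, not a bound site. All 4 printed windows hold CCGGAAG or its reverse, but so do those of COX6B1 (0.05) and ATP5MG (-0.03). Those of UQCR10 (-0.38) and COX7B (-0.35) do not. The fold changes are relative to input RNA, and whether they go with a motif was not tested.

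Complex II was the one complex with more positive than negative members, 3 against 1, and a median of 0.08. SDHA, the flavoprotein that holds the succinate site, had 0.14 ± 0.61 (unadjusted p = 0.813) per the authors' deposited table. SDHB, the iron-sulfur subunit, had -0.13 ± 0.38, and the membrane anchors SDHC and SDHD had 0.03 ± 0.20 and 0.19 ± 0.38 per the authors' deposited table. SDHC had the smallest error of the 4, with a 95% interval from -0.36 to 0.41. SDHA had a mean signal of 58.3 and an interval from -1.05 to 1.33, so a change of 1 log2 unit in it was not detectable. All 4 lie within 1 standard error of 0, and whether complex II differs from the others was not tested.

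In complex III the small subunits and the larger ones stood on different sides. All 5 small subunits were negative (median -0.18), while 3 of the 4 core and catalytic subunits were positive (median 0.16). UQCRB, which helps shape the ubiquinone site, had -0.65 ± 0.34 (unadjusted p = 0.053, adjusted p = 0.558) per the authors' deposited table, with an interval that just reaches 0 (-1.31 to 0.01). UQCR10 had -0.38 ± 0.30, UQCRQ -0.18 ± 0.23 and UQCR11 -0.07 ± 0.27 per the authors' deposited table. UQCRH, the hinge protein beside cytochrome c1, had -0.17 ± 0.15 per the authors' deposited table, with the smallest error of the 44 members. Among the larger subunits, the core protein UQCRC1 had 0.30 ± 0.30 (unadjusted p = 0.307) and its partner UQCRC2 0.18 ± 0.60 per the authors' deposited table. CYC1, the cytochrome c1 that passes electrons to cytochrome c, had 0.14 ± 0.26 per the authors' deposited table. UQCRFS1, the Rieske iron-sulfur protein, was the exception at -0.43 ± 0.90 per the authors' deposited table, with a mean signal of 43.2. The split by size of subunit was seen in the values, was not tested, and no member of complex III has an interval that leaves out 0. CYCS, the mobile cytochrome c, had -0.19 ± 0.34 (unadjusted p = 0.583) per the authors' deposited table, and 45 pseudogenes named for it are annotated.

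Complex IV had a median of -0.23, with 9 of 11 members negative. It was the lowest median of the 4 complexes over all members, but not over members with no named pseudogene, where its 2 genes (COX7A2L and COX8A) gave 0.087, complex III gave 0.04 over 4 genes and complex V -0.13. Its catalytic core is made in the mitochondrion, and the nuclear subunits surround it. Of the 10 structural subunits among the members, 9 were negative. The other, COX6B1, which faces the intermembrane space, was near 0 at 0.05 ± 0.23 per the authors' deposited table. COX6C had -0.30 ± 0.20 (unadjusted p = 0.126) and COX7B -0.35 ± 0.36 per the authors' deposited table. COX7C stood at -0.24 ± 0.25, COX5B at -0.23 ± 0.36 and COX5A at -0.16 ± 0.29 per the authors' deposited table. COX8A had -0.08 ± 0.25 per the authors' deposited table. COX7A2 was the most tightly measured subunit of this complex, at -0.02 ± 0.15 per the authors' deposited table, from which an interval of -0.32 to 0.28 was computed. COX7A2L, a relative of COX7A2 that links complexes III and IV into supercomplexes, had 0.25 ± 0.47 per the authors' deposited table. The intervals of COX7A2 and COX7A2L overlap widely. The tissue-restricted partners COX4I2, COX6A2, COX6B2 and COX7A1 had no row.

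**Figure D2:**
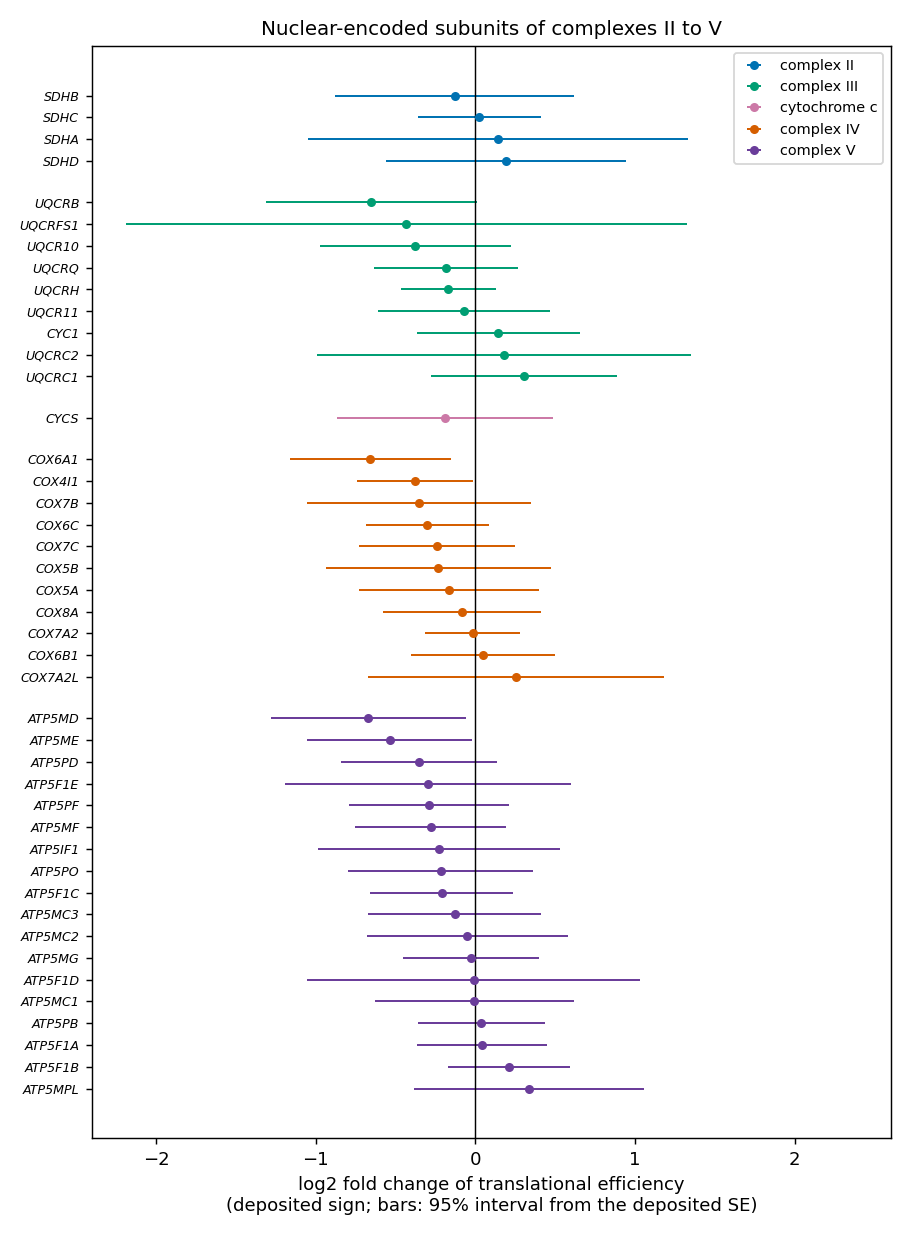
Log2 fold change of translational efficiency (horizontal axis, deposited sign) of 43 members, grouped by complex and ordered by value, with 95% intervals from the deposited standard errors; the readthrough gene is left out. Of all 44 members, 4 have intervals that leave out 0: COX6A1, COX4I1, ATP5MD and ATP5ME.

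ATP synthase gave 18 members, 14 negative and 4 positive, with a median of -0.17. In the F1 part, which carries out catalysis, the values centred near 0 (median -0.01 over 5 genes). The catalytic beta subunit ATP5F1B had 0.21 ± 0.20 and its alpha partner ATP5F1A 0.04 ± 0.21 per the authors' deposited table. The central stalk subunits ATP5F1C, ATP5F1D and ATP5F1E had -0.21 ± 0.23, -0.01 ± 0.53 and -0.30 ± 0.46 per the authors' deposited table. The peripheral stalk, which holds the F1 head still, had a median of -0.25 over 4 genes. ATP5PD stood at -0.35 ± 0.25, ATP5PF at -0.29 ± 0.26 and ATP5PO at -0.22 ± 0.30, while ATP5PB stood at 0.04 ± 0.20, per the authors' deposited table.

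The small membrane subunits, counted apart from the c subunits of the rotor ring, held both ends of the range. Their median was -0.28 over 5 genes, from -0.67 for ATP5MD to 0.34 ± 0.37 for ATP5MPL (now ATP5MJ) per the authors' deposited table. ATP5MF had -0.28 ± 0.24 and ATP5MG -0.03 ± 0.22 per the authors' deposited table. ATP5MC1, ATP5MC2 and ATP5MC3 encode the same mature c subunit of the rotor ring behind different import sequences. They stood close together at -0.01 ± 0.32, -0.05 ± 0.32 and -0.13 ± 0.28 per the authors' deposited table, and no interval of the 3 leaves out a change of 0.4 log2 units in either direction. ATP5IF1, the inhibitor that stops ATP synthase from running backwards, had -0.23 ± 0.39 per the authors' deposited table. The readthrough gene ATP5MF-PTCD1, which joins ATP5MF to its neighbour and shares exons with it, had -0.27 ± 1.41 per the authors' deposited table. Its mean signal was 11.4 and its 95% interval ran from -3.04 to 2.50, too wide to compare it with ATP5MF.

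**Figure D3:**
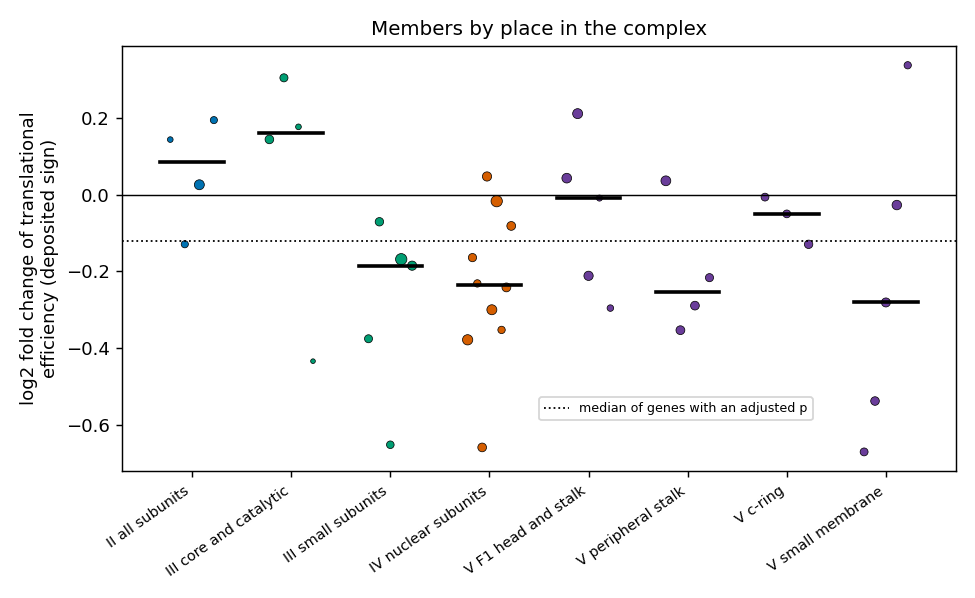
Log2 fold change of translational efficiency (vertical axis, deposited sign) of members by place in the complex (CYCS, COX7A2L, ATP5IF1 and ATP5MF-PTCD1 left out); each point is a gene, drawn larger where its standard error is smaller, bars are medians and the dotted line is the median of genes with an adjusted p (-0.12). The complex II, complex III core and catalytic, F1 and c-ring medians lie above the dotted line, and the other 4 medians lie below it.

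Among the 35 members with an adjusted p, the fold changes varied by about as much as their errors (standard deviation 0.25, median standard error 0.26). Among the 9 without one they varied by less, with 0.25 against 0.53. Over all 44 the standard deviation was 0.25, and the median standard error was 0.28 (from 0.15 to 1.41). Of the 44, 13 lay farther from 0 than their own standard error, 11 negative and 2 positive (UQCRC1 and ATP5F1B). Within genes with an adjusted p this was 13 of 35 members (37.1%), against 28.1% of all 648. In 31 of 44 members the whole 95% interval lay within 1 log2 unit of 0, and in 7 (SDHC, UQCRH, COX6B1, COX7A2, ATP5F1A, ATP5PB and ATP5MG) it lay within 0.5. For SDHA, UQCRFS1, UQCRC2, ATP5F1D and ATP5MF-PTCD1 the error was too wide for a change of 1 log2 unit to leave out 0.

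Genes that work with these complexes were set beside them. Nuclear genes named as complex I subunits split into 29 negative and 9 positive, around a median of -0.12. At an unadjusted p under 0.05 there were 0 of 38, and NDUFB9 had the smallest p at -0.44 ± 0.25 per the authors' deposited table. Among genes with an adjusted p, 17 of 19 in this list were negative (89.5%), a larger share than the 77.1% of members. Their median was -0.13, against -0.18 for those members. The 38 were drawn by symbol alone, and the complex each belongs to was not checked. NDUFA4, at -0.08 ± 0.27 per the authors' deposited table, is among them by its symbol. The 38 leave out the readthrough gene NDUFC2-KCTD14, which had -4.20 ± 1.71 (unadjusted p = 0.014) per the authors' deposited table, while ATP5MF-PTCD1 is counted among the 44 members. All 6 mitochondrially encoded subunits of complexes III to V were negative, with a median of -0.25, and 2 of them had an unadjusted p under 0.05. MT-CO3, a core subunit of complex IV, had -0.49 ± 0.15 (adjusted p = 0.077) per the authors' deposited table, and 0 of the 6 passed the adjustment. The other core subunits of complex IV, MT-CO1 and MT-CO2, had -0.17 ± 0.16 and -0.08 ± 0.13 per the authors' deposited table. The median over the 11 members counted by name with that complex was -0.23. Of 38 assembly factors 37 were measured, 22 negative and 15 positive (59.5% negative, against 51.9% of all genes), with a median of -0.11. Their median standard error was 1.07, and 1 of the 37 had an adjusted p. Among them CMC2, a small protein of the intermembrane space linked to complex IV, had -0.97 ± 0.49 (unadjusted p = 0.048) per the authors' deposited table, below the signal that receives an adjusted p. Carriers and membrane organisers, among them the phosphate carrier SLC25A3, the ADP/ATP carriers and the VDAC channels, split into 8 positive and 3 negative, around a median of 0.05. VDAC1 had the smallest p of that list, at 0.24 ± 0.29 per the authors' deposited table. Differences between these lists and the members were not tested.

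No label or header says how the counting treated reads that match a gene and its copies. For 32 of the 44 members the annotation holds pseudogenes that carry the gene's name. UQCRFS1P1, a pseudogene with its own row, had -0.42 ± 0.95, beside -0.43 ± 0.90 for UQCRFS1, per the authors' deposited table. SDHAP3, another such pseudogene, had -1.18 ± 2.47, beside 0.14 ± 0.61 for SDHA, per the authors' deposited table. The errors are too wide to tell either pseudogene from its parent. Among the 4 members with an unadjusted p under 0.05, COX6A1 has 6 named pseudogenes, COX4I1 2, ATP5MD 1 and ATP5ME 0. Small RNA genes lie inside 5 member spans: SNORA94 in UQCRC1, SNORD138 in COX7C, MIR1307 in ATP5MD, SNORD59A and SNORD59B in ATP5F1B, and a lysine tRNA gene in ATP5F1A. UQCRC1 and ATP5F1B were also the 2 positive members farther from 0 than their own standard error. The part of reads from pseudogenes or small RNA genes in the values was not tested.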

How the data were processed

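The files hold 1 deposited table of a comparison over 8 libraries (footprints and input RNA, knockdown and control, 2 each), with no values per library. By its name, the authors ran riborex with the DESeq2 engine, which models translational efficiency from counts, and no source here gives the versions or the input values. CASAVA, kallisto, HISAT2 2.1.0 and the build hg38 appear in the submitters' processing notes, without roles. The mean signal, the log2 fold change with its standard error, the Wald score, the p-value and the adjusted p-value are the authors' own, per the file headers. The adjusted p was checked to be a Benjamini-Hochberg adjustment over 648 genes, and the p-value to be a two-sided normal tail.

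Computed here (Python 3.11.15, scipy 1.17.1, statsmodels 0.14.6) were 95% intervals from the deposited errors, medians and counts, adjustments under other settings, and motif matches. Symbols were matched to RefSeq GRCh38.p14; all 44 matched, 2 of them (ATP5MD and ATP5MPL) through an older name. Promoter windows are RefSeq's, with the same build. Of these steps, only the p-value and its Benjamini-Hochberg adjustment were tested on simulated data. Members, lists and rules were chosen with earlier results of these data known, so lists have counts and medians and no test. The genes named are all members, and from each other list the gene with the smallest p. Named besides, after their values were seen, were MT-CO1, MT-CO2, SLC25A3, NDUFA4, UQCRFS1P1, SDHAP3, NDUFC2-KCTD14, LYZ and the other monocytic markers. Depth per library is unknown, so the deposited standard error is the measure of precision. Over all genes this error was wider than the spread of the fold changes.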

Additional observations from a re-analysis of the deposited data

How the results depend on the processing

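No paired analysis was possible because the deposited table holds no values per library, and for the same reason leaving out a replicate and another count model were not run. The count of members passing an adjusted p of 0.05 was 0 as deposited, after centring on the median of all genes (-0.02), after a mean signal minimum of 20 or 100, and with the adjustment over all 9339 genes, where the smallest adjusted p of a member was 1.00. Without members that have a named pseudogene 12 remained, of which 8 were negative and 1 (ATP5ME) had an unadjusted p under 0.05; the median of complex IV then rested on COX7A2L and COX8A alone and was 0.087, that of complex III was 0.04 over 4 genes (deposited -0.17 over 9), and that of all members was -0.08 (deposited -0.17). This setting keeps fewer genes by its construction. Centring turned the sign of COX7A2 (0.0020), ATP5MC1 (0.013) and ATP5F1D (0.010), whose deposited values were near 0. It left 3 members with an unadjusted p under 0.05, without COX4I1. Beyond the 2 counts and the complex IV median among members with no named pseudogene, the other 40 values of counts and medians, including those weighted by inverse squared error, those without the readthrough gene and those without members overlapping small RNA genes (the last 2 chosen after seeing the data), moved by less than 1.5 times for counts and by less than the median standard error for medians. Signal limits the comparison: the 9 members below 155.3 have a median standard error of 0.53, against 0.26 for the 35 above it.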
